A study of Mus musculus with 12 samples.

Results

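The integrated stress response and the hormone FGF21 were followed in mouse liver through 10 genes, namely Fgf21, Gdf15, Atf4, Atf3, Ddit3, Trib3, Chac1, Sesn2, Asns and Ppp1r15a. The members were taken by gene name from a transcript table of 22170 named genes, and the values of all transcripts of a gene were added in each liver. The unit is FPKM, the number of sequenced fragments of a transcript scaled by its length and by the mapped reads of the library. All 10 were found, in 35 transcripts, and 9 of them reached the mean of 0.5 FPKM that was required of the 11566 genes tested. Asns, with a mean of 0.343 FPKM, did not reach it, so its values are described without a test of each pair of groups.

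The integrated stress response is a pathway by which cells slow protein synthesis under strain. Kinases that sense unfolded protein, lack of amino acids, lack of heme or viral RNA phosphorylate the initiation factor eIF2, general translation falls, and translation of the mRNA of the transcription factor ATF4 rises. ATF4 and the factors it induces, ATF3 and CHOP (the product of Ddit3), then turn on genes of amino acid supply, redox balance and cell death, together with a feedback arm that removes the phosphate from eIF2. In liver, FGF21 and GDF15 are the hormones by which such stress is signalled to other organs, and FGF21 is also a fasting hormone driven by the fatty acid sensor PPAR-alpha.

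RNA was sequenced from livers of 12 male C57BL/6J mice, 3 in each of 4 groups, which were 21 weeks old after 16 weeks of feeding and had been fasted before sampling. The ND group ate a normal diet and the HFD group a high-fat diet. The CLE group (CLL in the sample labels) ate the HFD with 1.5% by weight of an ethanol extract of Chrysanthemum morifolium leaves, and the LU group ate the HFD with 0.003% by weight of luteolin, a plant flavone. The 3 mice of a group were picked by the study as representative of larger groups, and how they were picked was not given in the sources used here.

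The FPKM table carries no read counts, so the depth behind each value is unknown and no counting interval could be given. The labelled tissue was matched by hepatocyte genes, with Apoa1 between 3384 and 8861 FPKM and Hnf4a between 135 and 186 FPKM in the 12 livers, although albumin was listed at 0 in 11 of them. Several features moved with the groups over many genes. The markers of macrophages and Kupffer cells (9 found, none at 0 in any liver) summed to 107 to 121 FPKM in ND livers and 152 to 225 FPKM in HFD livers, and those of stellate cells and fibroblasts (7 found, none at 0) to 74.0 to 103 and 129 to 162 FPKM. A score of 14 clock genes, high where the genes of the Arntl phase were high, ran from 0.162 to 1.45 in ND livers, from -0.216 to 0.623 in HFD livers and from -0.931 to -0.214 in CLE and LU livers. The rank correlation of a library's deviations with the GC content of the transcripts was between -0.373 and -0.140 in ND and HFD livers and between 0.160 and 0.477 in CLE and LU livers, so that feature and supplementation cannot be told apart. In these bulk samples, fewer cells of a type and less RNA per cell cannot be told apart either.

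The windows around the transcription starts are printed first because ATF4, paired with a C/EBP factor, is known to act through a short composite motif. This C/EBP-ATF element was searched as TGATGNAA, or TTNCATCA on the other strand, in 250 bases before and 50 bases after each start in RefSeq (GRCm38.p6). It was present in 3.97% of 32851 windows of that length. By gene, 4.51% of 27025 gene symbols and 5 of the 10 genes had it in a window. The stretches that hold it are given 5′ to 3′ on the strand of the gene, with the motif in capitals.
Fgf21: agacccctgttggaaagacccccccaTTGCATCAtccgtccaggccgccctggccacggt
Atf3: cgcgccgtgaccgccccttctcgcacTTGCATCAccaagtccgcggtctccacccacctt
Chac1: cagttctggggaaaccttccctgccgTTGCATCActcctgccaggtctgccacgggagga
Asns: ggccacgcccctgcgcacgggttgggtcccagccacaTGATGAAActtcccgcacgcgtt
Trib3: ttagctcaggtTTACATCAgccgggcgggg

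The Fgf21 stretch lies at chr7:45615596-45615655 on the minus strand, and the motif begins at base -139, counted back from -1 just before the start. The Atf3 stretch is at chr1:191183410-191183469 (minus strand, motif from base -110), and the Chac1 stretch is at chr2:119351023-119351082 (plus strand, motif from base -193). The Asns stretch is at chr6:7693210-7693269 (minus strand, motif from base -23). The Trib3 stretch, at chr2:152344028-152344057 on the minus strand, is the only one that lies past the RefSeq start, with the motif beginning at base 15. The gene coordinates given below start elsewhere for 4 genes, at chr2:152344032 for Trib3, chr6:7693254 for Asns, chr1:191218039 for Atf3 and chr2:119351229 for Chac1. By those starts the Trib3 and Chac1 motifs lie before the start and the Asns motif past it. The Atf3 motif then lies far inside the gene, but before the start of its most abundant known transcript at chr1:191183340. Gdf15, which has 2 windows, and Atf4, Ddit3, Sesn2 and Ppp1r15a held no match, which says only that these letters are not in these windows. The cyclic AMP response element TGACGTCA, to which ATF and CREB factors bind, was found in 1.79% of all windows and for 2.03% of gene symbols. It was in 1 gene of the 10, Ppp1r15a, from base -12 (chr7:45526269-45526328, minus strand).
Ppp1r15a: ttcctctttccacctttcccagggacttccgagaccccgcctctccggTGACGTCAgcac

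Of the 5 genes that were higher in HFD livers (given below), Atf3 and Trib3 held the C/EBP-ATF letters in these windows. Gdf15, Ddit3 and Sesn2 did not, and sequence outside the windows was not searched. A part of the motif in the response was not tested.

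The hormone genes moved apart. Gdf15 rose under the HFD, whereas Fgf21 was lower on average in HFD than in ND livers without passing the test.

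Fgf21 (ENSMUSG00000030827, chr7:45613886-45615490, GRCm38, 3 exons) encodes the hepatokine FGF21, which signals through FGF receptors with the co-receptor beta-Klotho. Its level was 22.6, 11.4 and 25.7 FPKM in ND mice 2, 3 and 4, and 14.2, 7.80 and 7.49 FPKM in HFD mice 12, 15 and 18. It was 19.98, 18.04 and 13.5 FPKM in CLE mice 2, 4 and 11, and 8.04, 6.61 and 22.7 FPKM in LU mice 2, 3 and 8. ND mouse 3 fell within the range of the HFD livers, and LU mouse 8 stood well above its group mates, at the level of the ND livers. The mean ± SD (n = 3) was 19.9 ± 7.52 FPKM in ND, 9.82 ± 3.77 in HFD, 17.2 ± 3.32 in CLE and 12.5 ± 8.90 in LU livers.

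On the log2(FPKM + 1) scale Fgf21 was 0.93 lower in HFD than in ND livers (SE 0.39, 95% interval -1.78 to -0.07), and the adjusted p by limma was 0.148. CLE livers were 0.78 above HFD livers (interval -0.07 to 1.64, adjusted p by limma 0.201) and LU livers 0.17 above (interval -0.68 to 1.03, adjusted p by limma 0.829). In order of mean level the groups stood as ND, CLE, LU and HFD, and no neighbours in that order were separated by more than their spread. Dbp, a clock output gene, was at 21.4 FPKM in ND mouse 3, the ND liver lowest in Fgf21, and at 3.01 and 2.06 FPKM in ND mice 2 and 4. With the clock score as a covariate, the Fgf21 difference between HFD and ND livers was -0.36 (adjusted p by limma 0.668). The score itself moved with diet, from 0.162 to 1.45 in ND and from -0.216 to 0.623 in HFD livers. A part of the clock in the Fgf21 levels was not tested.

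Gdf15 (ENSMUSG00000038508, chr8:70629393-70632456, GRCm38, minus strand) encodes a stress hormone of the TGF-beta superfamily that lowers food intake through a receptor in the hindbrain. It had the largest difference among the 9 tested members between HFD and ND livers. Its level was 0.728, 1.58 and 3.53 FPKM in ND mice 2, 3 and 4 and 25.0, 13.1 and 13.2 FPKM in HFD mice 12, 15 and 18. Every HFD liver was above every ND liver. CLE livers were at 12.0, 3.35 and 6.63 FPKM (mice 2, 4 and 11) and LU livers at 5.60, 2.58 and 17.5 FPKM (mice 2, 3 and 8). All 3 CLE livers lay below the lowest HFD liver, while LU mouse 8 lay inside the HFD range. CLE mouse 4 and LU mouse 3 lay inside the ND range.

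The mean of Gdf15 was 17.1 ± 6.82 FPKM in HFD and 1.95 ± 1.44 FPKM in ND livers (SD, n = 3), a ratio of 8.80. The log2(FPKM + 1) difference was 2.67 (SE 0.55, interval 1.49 to 3.86, adjusted p by limma 0.00799). CLE livers averaged 7.34 ± 4.39 FPKM, a difference to HFD of -1.20 (interval -2.38 to -0.01) with an adjusted p by limma of 0.166. LU livers averaged 8.57 ± 7.92 FPKM, a difference of -1.19 (interval -2.38 to -0.01) with an adjusted p by limma of 0.244. The table splits Gdf15 into 3 transcripts, and the longer known one (ENSMUST00000110103) was estimated at 0.242, 0.212 and 0.0518 FPKM in ND and at 15.8, 5.57 and 7.60 FPKM in HFD livers. Estimates of single transcripts that share exons are uncertain, and the sum is the value used here.

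**Figure D1:**
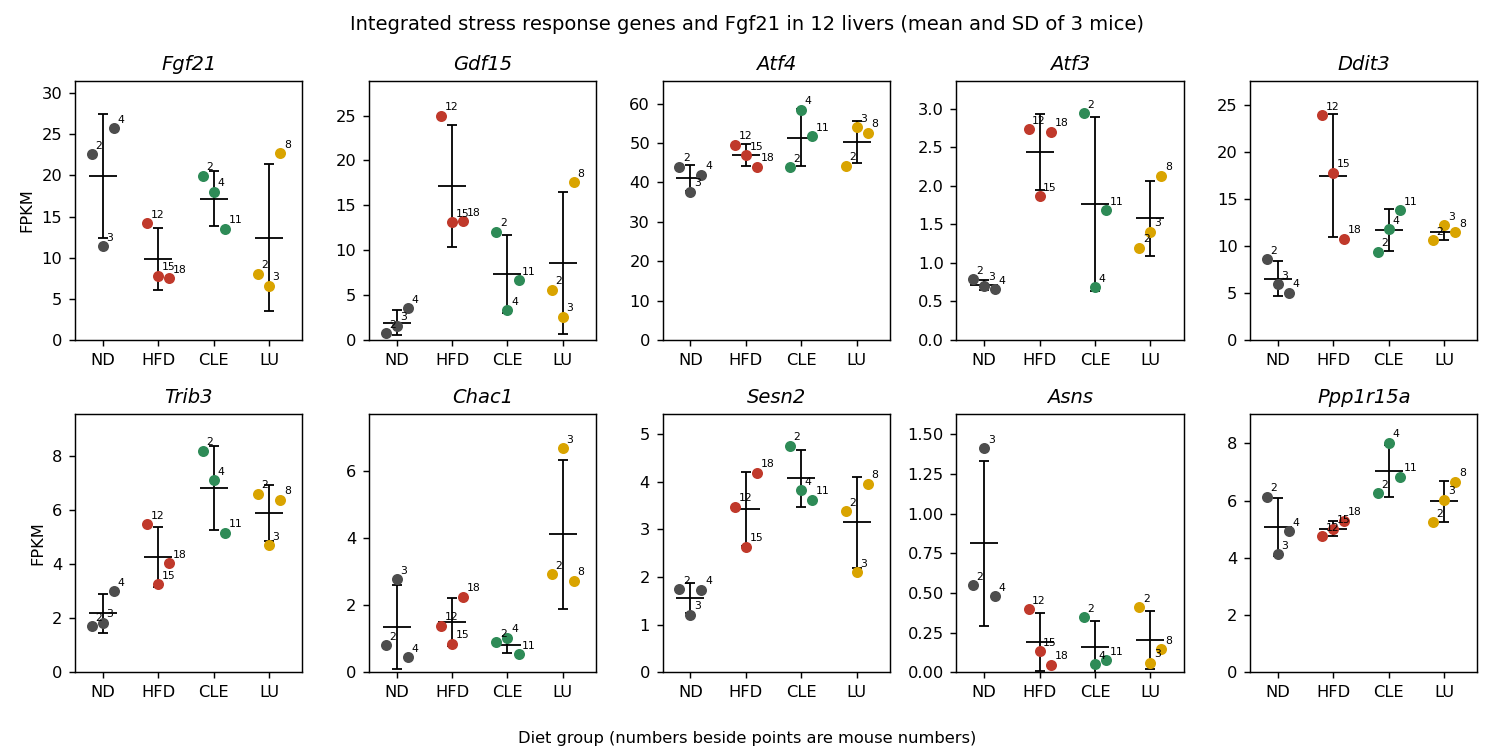
FPKM (vertical axes, from 0) of the 10 genes in each of the 12 livers by diet group, with mouse numbers beside the points and the mean and SD of 3 mice as bars (the lower bar of Asns in CLE is cut at 0). Gdf15 is highest in HFD mouse 12 at 25.0 FPKM and lowest in ND mouse 2 at 0.728 FPKM, and LU mouse 8 stands above the other LU mice in both Fgf21 and Gdf15.

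Among the transcription factors, Ddit3 and Atf3 rose under the HFD and the mRNA of Atf4 stayed within a narrow range. Atf4 (chr15:80255184-80257541, plus strand), the central factor of the response, which is controlled mainly at translation, was the most abundant member with a mean of 47.4 FPKM. It ran from 37.6 to 44.0 FPKM in ND, 44.0 to 49.6 in HFD, 43.8 to 58.5 in CLE and 44.3 to 54.0 FPKM in LU livers. The ranges of ND and HFD touched, and their difference on the log2(FPKM + 1) scale was 0.18 (interval -0.08 to 0.45, adjusted p by limma 0.372). RNA levels do not show how much ATF4 protein was made.

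Ddit3 (ENSMUSG00000025408, chr10:127290774-127296288, plus strand) encodes CHOP, a factor that promotes cell death in prolonged stress. It was at 8.63, 5.94 and 5.03 FPKM in ND mice 2, 3 and 4 and at 24.0, 17.8 and 10.8 FPKM in HFD mice 12, 15 and 18. All 3 HFD livers were above all 3 ND livers, but HFD mouse 18 was within the range of the CLE and LU livers, which ran from 9.41 to 13.8 and from 10.6 to 12.2 FPKM. The HFD livers averaged 2.68 times the ND livers, with a log2(FPKM + 1) difference of 1.26 (SE 0.24, interval 0.74 to 1.78, adjusted p by limma 0.00580). CLE and LU livers were lower than HFD livers by -0.49 (interval -1.02 to 0.03) and -0.51 (interval -1.03 to 0.01), with adjusted p by limma of 0.190 and 0.254. Ddit3 is overlapped on the opposite strand by the annotated gene Mars, and the library kit did not mark strand, so reads in the shared stretch cannot be told apart.

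Atf3 (chr1:191170296-191218039, minus strand), a repressor induced early by ATF4 and by many other stresses, was at 0.790, 0.703 and 0.661 FPKM in the ND livers and at 2.74, 1.87 and 2.70 FPKM in the HFD livers. The ND values were tight and lay below every HFD value. CLE mice 2, 4 and 11 stood at 2.94, 0.681 and 1.68 FPKM, so the group spanned both the ND level and the HFD level. LU livers ran from 1.20 to 2.13 FPKM. The HFD difference was 0.99 on the log2(FPKM + 1) scale (SE 0.24, adjusted p by limma 0.0202) and the ratio of means was 3.39. The call was lost in 2 of 11 other settings and with 4 of 6 mice left out in turn (ND mice 2 and 4, HFD mice 12 and 18), at adjusted p by limma of at most 0.0836 and 0.0747.

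Of the 4 target genes of ATF4 and CHOP, Trib3 and Sesn2 rose under the HFD, Chac1 was not separated between HFD and ND livers, and Asns ran the other way at a very low level. Trib3 (chr2:152337422-152344032, minus strand), a pseudokinase that restrains Akt and ATF4 itself, was at 1.71, 1.83 and 2.998 FPKM in ND mice 2, 3 and 4 and at 5.48, 3.27 and 4.03 FPKM in HFD mice 12, 15 and 18. It was at 8.19, 7.09 and 5.15 FPKM in CLE mice 2, 4 and 11 and at 6.60, 4.69 and 6.38 FPKM in LU mice 2, 3 and 8. The ND livers were the lowest 3 of the 12, and the CLE and LU means, at 6.81 ± 1.54 and 5.89 ± 1.05 FPKM, were above the HFD mean of 4.26 ± 1.13 FPKM although the ranges overlapped. The HFD difference to ND was 0.73 on the log2(FPKM + 1) scale (SE 0.20, adjusted p by limma 0.0354). The adjusted p by limma was 0.05 or more in 7 of 11 other settings and with 4 of 6 mice left out in turn.

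Sesn2 (chr4:132492032-132510501, minus strand) encodes sestrin 2, an amino acid sensor that restrains mTORC1. ND livers were at 1.75, 1.21 and 1.73 FPKM (mice 2, 3 and 4) and HFD livers at 3.48, 2.64 and 4.19 FPKM (mice 12, 15 and 18). CLE livers were at 4.76, 3.83 and 3.62 FPKM and LU livers at 3.39, 2.10 and 3.96 FPKM. The 9 livers of mice on an HFD base were all above the 3 ND livers, and the 3 groups on that base overlapped. The difference between HFD and ND was 0.78 on the log2(FPKM + 1) scale (SE 0.18, interval 0.38 to 1.18, adjusted p by limma 0.0165). The call was lost in 2 of 11 other settings and with 3 of 6 mice left out in turn (ND mouse 3, HFD mice 12 and 18), at adjusted p by limma of at most 0.0814 and 0.0732.

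Chac1 (chr2:119351229-119354381, plus strand) encodes an enzyme that degrades glutathione. Its mean was highest in the LU livers, which were at 2.93, 6.67 and 2.73 FPKM (mice 2, 3 and 8), next to 0.897, 1.03 and 0.547 FPKM in CLE mice 2, 4 and 11. HFD livers were at 1.38, 0.851 and 2.26 FPKM and ND livers at 0.804, 2.77 and 0.462 FPKM. Every LU liver was above every HFD liver and every CLE liver, while ND mouse 3 reached the LU range. LU livers were 0.99 above HFD livers on the log2(FPKM + 1) scale (SE 0.34, interval 0.25 to 1.73), and the adjusted p by limma was 0.151.

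Asns (ENSMUSG00000029752, chr6:7675169-7693254, minus strand) encodes asparagine synthetase, one of the best known targets of ATF4. It was near the floor of the table, at 0.549, 1.41 and 0.479 FPKM in ND mice 2, 3 and 4, and at or below 0.410 FPKM in the other 9 livers, with 0.399, 0.134 and 0.0490 FPKM in HFD mice 12, 15 and 18. The ND livers were the highest 3 of the 12, in the direction opposite to Trib3 and Sesn2. At such levels 1 transcript with few fragments can set the value, and without counts its error is not known.

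Ppp1r15a (chr7:45522916-45526268, minus strand), also called GADD34, encodes the regulatory subunit of the phosphatase that restores eIF2 and so closes the feedback loop. It was at 6.13, 4.12 and 4.94 FPKM in ND, 4.75, 5.01 and 5.30 FPKM in HFD, 6.26, 8.02 and 6.83 FPKM in CLE (mice 2, 4 and 11) and 5.24, 6.03 and 6.66 FPKM in LU livers (mice 2, 3 and 8). The HFD values lay inside the ND range, and the log2(FPKM + 1) difference was 0.002 (interval -0.30 to 0.30). All CLE livers were above all HFD livers, with a difference of 0.41 (SE 0.14, interval 0.11 to 0.71) and an adjusted p by limma of 0.0794. The annotated gene Tulp2 overlaps Ppp1r15a on the opposite strand.

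Counted over the 9 tested genes, 5 were higher and none was lower in HFD than in ND livers at an adjusted p below 0.05 by limma, beside 12.1% of all 11566 genes. These were Gdf15, Ddit3, Atf3, Sesn2 and Trib3, and the same 5 were those whose 2 groups did not overlap, beside 36.5% of all genes. The median log2(FPKM + 1) difference of the 9 genes was 0.73, with 8 above 0, beside a median of 0.12 and 69.2% above 0 over all genes tested. Gdf15 and Ddit3 passed in each of 12 other settings and with each of the 6 mice left out in turn. The count of 5 fell to 2 with quantile normalization, without HFD mouse 12 and without HFD mouse 18, beside 9.08%, 6.67% and 6.33% of all genes. It fell to 3 with a GC correction, without ND mouse 2 and without ND mouse 3, beside 10.2%, 5.67% and 9.8%. Over all genes, 82.6% of those that passed were higher in HFD livers, and 55.1% with median-of-ratios scaling, which moved the median of all genes from 0.115 to -0.013. All 5 genes stayed higher in HFD livers under that scaling, with Trib3 no longer passing. The macrophage and stellate cell marker sums given above did not overlap between HFD and ND livers either. Nor did those of endothelial cells (6 markers, 67.5 to 80.2 FPKM in ND and 86.1 to 90.7 in HFD livers), neutrophils (4 markers, 2.13 to 3.62 and 4.18 to 7.20 FPKM, with Ly6g at 0) and adipocytes (6 markers, 415 to 885 and 1455 to 1999 FPKM, nearly all of it Car3, with Lep at 0 and Adipoq at or below 0.08 FPKM in these 6 livers). Single markers did not all follow their sums. The endothelial marker Kdr was lower in HFD livers (6.71 to 8.10 FPKM) than in ND livers (8.58 to 9.97 FPKM), and Lyve1 overlapped. Timd4, Marco, Cd14, Gpnmb and Acta2 of the macrophage and stellate lists also overlapped. The neutrophil sum was nearly all S100a8 and S100a9, each of which overlapped, with Mpo at most 0.11 FPKM. The part of these cells in the differences between HFD and ND livers was not tested.

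Against the HFD group, none of the 9 genes passed in CLE livers (limma, adjusted p below 0.05), beside 6.03% of all genes, and none passed in LU livers, beside 1.03%. At an unadjusted p below 0.05 by limma, 3 members stood out in CLE livers, Gdf15 lower and Trib3 and Ppp1r15a higher, beside 29.5% of all genes. In LU livers 2 did, Gdf15 lower and Chac1 higher, beside 20.3% of all genes. The groups did not overlap for Gdf15 and Ppp1r15a between CLE and HFD livers, beside 31.3% of all genes, and for Chac1 between LU and HFD livers, beside 30.0%. Of the members that rose under the HFD, the means of Gdf15, Atf3 and Ddit3 were below and that of Trib3 was above the HFD mean in both supplemented groups. The zero count for CLE depended on 1 liver. Without CLE mouse 2, Ppp1r15a passed as higher and Atf3 as lower than in HFD livers by limma (adjusted p 0.0463 and 0.0415), beside 18.9% of all genes. Over all genes, 45.4% of those that passed for CLE were higher than in HFD livers, and 32.0% with the GC correction.

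CLE is a plant extract and LU a pure flavone, given at different doses, and the groups were set against each other only as fed. None of the 9 genes passed between CLE and LU livers, beside 0.00865% of all genes, which is 1 gene. Chac1 had the largest difference, -1.41 on the log2(FPKM + 1) scale (SE 0.34, interval -2.16 to -0.67), and was the only 1 of the 9 genes whose groups did not overlap, beside 7.08% of all genes. It was also the only 1 below an unadjusted p of 0.05 by limma, beside 4.39% of all genes, and its adjusted p by limma was 0.751. For Gdf15 the difference was -0.01 with an interval from -1.19 to 1.18, which leaves room for a difference in either direction, and for Atf4 it was 0.03 with an interval from -0.24 to 0.29.

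**Figure D2:**
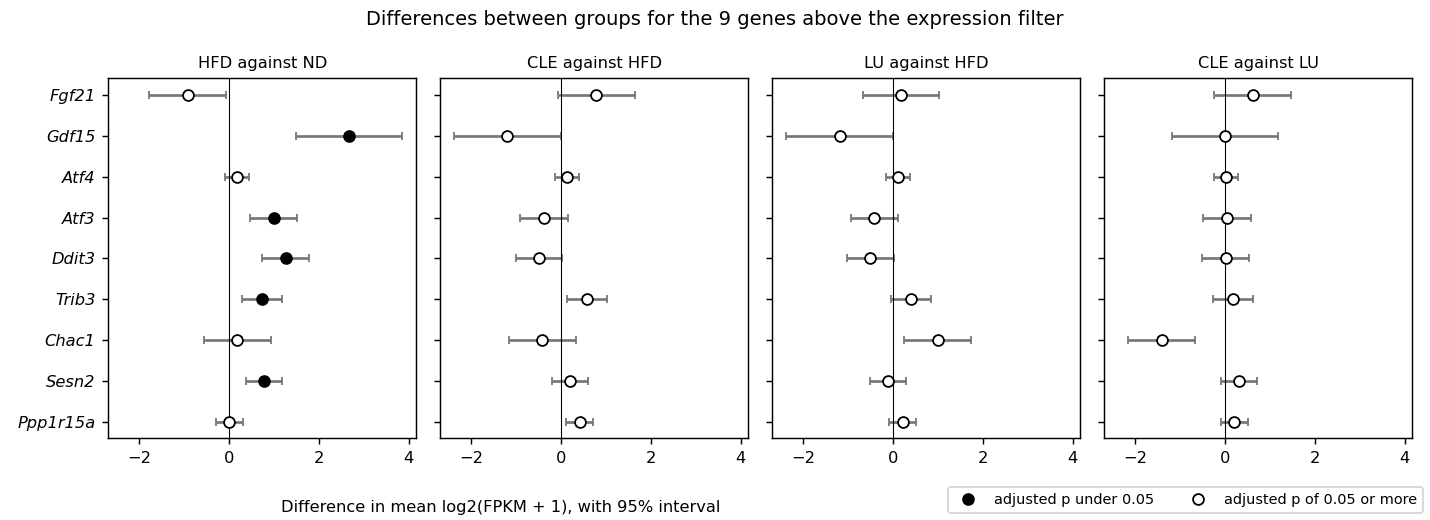
Difference between 2 groups in mean log2(FPKM + 1) with its 95% interval (horizontal axes) for the 9 genes tested, in 4 comparisons, with filled points where the adjusted p by limma was below 0.05. Filled points occur only in the comparison of HFD with ND, for Gdf15, Atf3, Ddit3, Trib3 and Sesn2, and the Fgf21 intervals for CLE and LU against HFD include 0.

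Compared with ND livers, whose samples are shared with the HFD comparison, Trib3 and Sesn2 were higher in both supplemented groups. Marker sums lay above ND there too, at 163 to 197 FPKM in CLE and 121 to 199 in LU livers for macrophages, where the lowest LU liver was level with the highest ND liver, 128 to 202 and 128 to 171 for stellate cells, and 93.4 to 106 and 86.6 to 118 FPKM for endothelial cells. Of the endothelial markers, Kdr and Lyve1 overlapped with ND livers in both supplemented groups. The neutrophil sum was at 7.60 to 11.7 FPKM in CLE livers, beside 2.13 to 3.62 in ND livers, with Ly6g at 0 in all 12 livers, and overlapped with ND in LU livers. Nearly all of that sum was S100a8 and S100a9. Of the adipocyte markers, Lep was at 0.14 to 0.19 FPKM in LU livers and at 0 in the other 9. Adipoq was at 0.50 to 0.76 FPKM in LU livers and at most 0.14 elsewhere, and Plin1 at 0.14 to 0.34 and at most 0.03. Car3, Cfd and Retn in LU livers overlapped with both HFD and CLE livers. The part of these cells in the member differences was not tested. In CLE livers 4 of 9 genes were higher by limma (adjusted p below 0.05), beside 27.0% of all genes, and these were Trib3, Sesn2, Ddit3 and Ppp1r15a. The same 4 did not overlap with ND, beside 42.4% of all genes. In LU livers 3 of 9 were higher, Trib3, Sesn2 and Chac1, beside 14.9% of all genes, and 5 did not overlap with ND (Atf3, Atf4, Ddit3, Trib3 and Sesn2), beside 40.9% of all genes. Trib3 was higher by 1.30 in CLE (SE 0.20) and by 1.13 in LU livers (SE 0.20) on the log2(FPKM + 1) scale, with adjusted p by limma of 0.00217 and 0.00636. The count for CLE fell to 2 without ND mouse 3, without ND mouse 4 and without CLE mouse 11, beside 19.6%, 13.8% and 21.9% of all genes. That for LU fell to 1 without ND mouse 4 and without LU mouse 2, beside 5.53% and 8.91%. Fgf21 differed from ND by -0.75 in LU livers (adjusted p by limma 0.192) and passed as lower without LU mouse 8 (-1.26, adjusted p by limma 0.0350). Of all genes that passed, 77.5% in CLE and 74.7% in LU livers were higher than in ND livers, and 42.9% and 40.6% with median-of-ratios scaling, which moved the median difference of all genes from 0.159 to 0.021 and from 0.120 to 0.018. With that scaling 2 members passed in CLE livers, beside 24.6% of all genes, and 3 in LU livers, beside 15.1%. With the clock score as a covariate, no member passed in either comparison, and 0.337% and 0.138% of all genes did. The clock scores of ND livers did not overlap with those of CLE and LU livers, so clock phase and supplemented HFD cannot be told apart.

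Over the 4 groups together, permuting the 12 mice exactly, over all 15400 distinct ways to form 4 groups of 3 and with the F statistic, gave an unadjusted p below 0.05 for 7 of the 10 genes, beside 37.1% of the 11566 genes tested. The exact p was 0.00338 for Trib3, 0.00682 for Ddit3, 0.0107 for Sesn2 and 0.0310 for Gdf15. It was 0.0377 for Asns, which is not among the 11566 genes, 0.0386 for Ppp1r15a and 0.0462 for Chac1. These 3 depended on the setting. At a pseudocount of 0.1 the count was 5, with an exact p of 0.0951 for Asns and 0.0551 for Chac1. With median-of-ratios scaling the count was 6, with an exact p of 0.113 for Ppp1r15a. Atf3, Atf4 and Fgf21 gave exact p of 0.0639, 0.125 and 0.244. The count ran from 3 to 8 with 1 mouse left out at a time, with 3 without HFD mouse 18 and also without CLE mouse 11, and with 8 without CLE mouse 2.

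The members did not rise and fall as 1 block from liver to liver. HFD mouse 12 had the highest Gdf15 and the highest Ddit3 of the 12 livers, and its Fgf21 was the highest of its group as well. CLE mouse 4 had the highest Atf4 and the highest Ppp1r15a, with Atf3 at the ND level and Gdf15 the lowest of its group. Its library also had the highest FPKM sum of named genes, 5575486 beside at most 3633939 (LU mouse 3) in the others. It had the highest GC correlation (0.477) and the lowest clock score (-0.931) as well. A part of these library features in its levels was not tested. LU mouse 3 had the highest Chac1, while its Fgf21 was the lowest of the 12 livers and its Sesn2 the lowest among the livers on an HFD base. LU mouse 8 was high in both hormones. In ND mouse 3, Asns and Chac1 were the highest of the ND group, and Fgf21, Sesn2 and Ppp1r15a were the lowest of it.

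**Figure D3:**
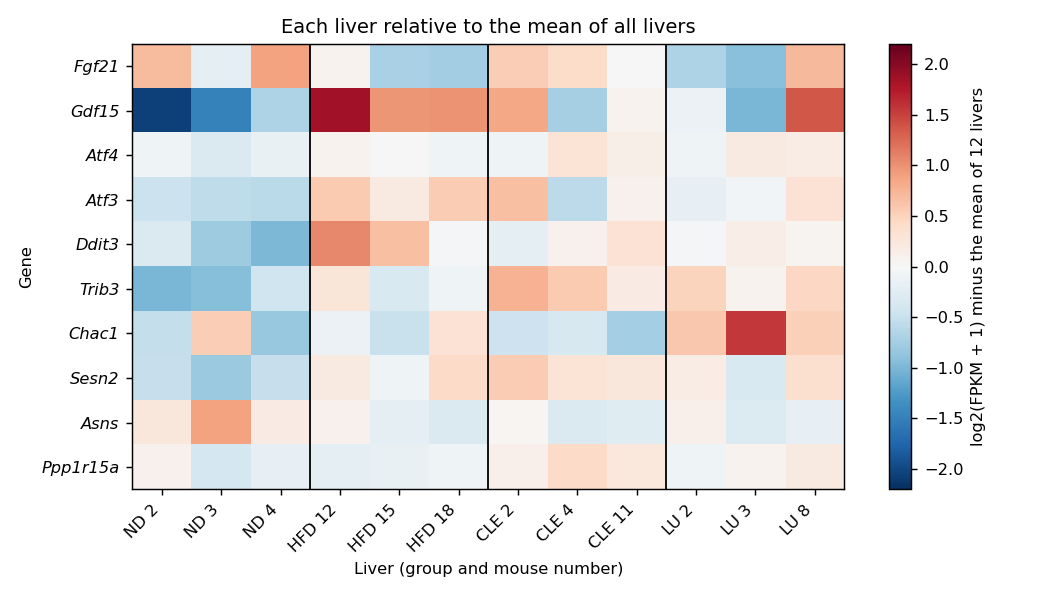
Deviation of each of the 10 genes in each of the 12 livers (columns, by group and mouse number) from the gene's mean over all livers, in log2(FPKM + 1), red above and blue below the mean. Gdf15 spans the widest range, from -2.06 in ND mouse 2 to 1.85 in HFD mouse 12, and Atf4 stays between -0.32 and 0.31.

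Genes around the pathway were read from fixed lists in which every gene was counted whether it moved or not, beside the 12.1% of all genes that passed between HFD and ND livers. Among the eIF2 kinases and eIF2 control genes, 2 of 19 were higher and none was lower in HFD than in ND livers by limma. These were Impact, an inhibitor of the kinase GCN2 (difference 0.43), and Ppp1ca, the catalytic subunit that GADD34 recruits (0.38). Of 22 amino acid genes of the ATF4 programme, 2 were higher, the aminoacyl-tRNA synthetases Sars (0.48) and Cars (0.39). Both counts were near the share of all genes. With median-of-ratios scaling none of these 4 genes passed, at adjusted p by limma from 0.117 to 0.185. The IRE1 and ATF6 branches of the unfolded protein response had 0 of 15 genes past the test by limma. At an unadjusted p below 0.05 by limma they had 2, beside 3149 of all 11566 genes. Their median difference was 0.30, with 13 of 15 above 0, beside a median of 0.115 and 69.2% above 0 over all genes.

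The 13 partner factors of ATF4 split, with 1 higher and 1 lower in HFD livers. Atf5, a factor related to ATF4 and abundant in liver, fell from a mean of 255 FPKM in ND to 136 FPKM in HFD livers (difference -0.88, SE 0.18, adjusted p by limma 0.00710). Its values were 312, 207 and 246 FPKM in ND mice 2, 3 and 4, 132, 145 and 130 FPKM in HFD mice 12, 15 and 18, and 217, 294 and 199 FPKM in CLE mice 2, 4 and 11. No ND or CLE value fell into the HFD range, and CLE livers were 0.78 above HFD livers (SE 0.18, adjusted p by limma 0.0335, and 0.104 with a GC correction). Atf5 was the only 1 of the 13 factors that passed between CLE and HFD livers, beside 6.03% of all genes. Nfe2l2, which encodes the antioxidant factor NRF2, rose from a mean of 33.4 to 49.8 FPKM (difference 0.56, adjusted p by limma 0.00671).

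Of 13 other targets of ATF4 or CHOP, 2 rose under the HFD. Vldlr, the receptor for very low density lipoprotein, went from 0.592, 0.592 and 0.769 FPKM in ND livers to 3.38, 4.74 and 3.44 FPKM in HFD livers (difference 1.55, SE 0.23, adjusted p by limma 0.00102). Gadd45a, a growth arrest gene, went from a mean of 0.924 to 2.39 FPKM (difference 0.78, adjusted p by limma 0.0241, and 0.0614 with the GC correction). Both stayed above ND in CLE livers (differences 0.79 and 1.45) and in LU livers (0.82 and 1.19), with adjusted p by limma from 0.00111 to 0.0310. In CLE livers Sesn3, a relative of Sesn2, was lower than in HFD livers by -1.01 (adjusted p by limma 0.0329), the opposite sign to the Sesn2 difference of 0.20, which did not pass. Sesn3 was the only 1 of these 13 targets that passed between CLE and HFD livers, beside 6.03% of all genes.

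Amino acid genes also moved in both directions in the CLE livers. Slc1a5, a glutamine transporter, and Eprs, a tRNA synthetase, were higher than in HFD livers (differences 0.72 and 0.46), and Tars, the threonyl-tRNA synthetase, was lower (-0.59), with adjusted p by limma of 0.0292, 0.0339 and 0.0476. Thus 2 of 22 genes of this list were higher and 1 was lower, beside 6.03% of all genes in both directions. Dnajc3, an inhibitor of the eIF2 kinases PERK and PKR, was lower in CLE livers (-0.66, adjusted p by limma 0.0483), as was Edem1 of the endoplasmic reticulum degradation pathway (-0.63, adjusted p by limma 0.0316). These were 1 of 19 eIF2 genes and 1 of 15 genes of the IRE1 and ATF6 branches, beside the same 6.03%. With the GC correction Slc1a5, Eprs, Edem1 and Sesn3 still passed, while Tars and Dnajc3 gave adjusted p by limma of 0.0689 and 0.0766. In LU livers none of the genes of these 5 lists passed against HFD by limma. At an unadjusted p below 0.05 they held 5 of 19 eIF2 genes, 4 of 13 partner factors, 5 of 22 amino acid genes, 6 of 13 other targets and 4 of 15 genes of the IRE1 and ATF6 branches, beside 20.3% of all genes.

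Lists of other stress pathways had counts near the 12.1% of all genes. In HFD against ND livers by limma, the immediate early genes had 1 higher, Klf6 (0.82), and 1 lower, Egr1 (-0.98), of 14. The p53 targets had 1 of 9, the cyclin gene Ccng1 (0.73), and the mitochondrial stress genes 1 of 7, the protease gene Lonp1 (0.39). With median-of-ratios scaling Klf6, Ccng1 and Lonp1 did not pass, at adjusted p by limma of 0.0668, 0.0534 and 0.158. Against HFD, Ccng1 was lower in CLE livers (-0.79, adjusted p by limma 0.0368), 1 of 9 p53 targets, beside 6.03% of all genes. In LU livers 1 immediate early gene of 14 was higher than in HFD livers and none was lower, beside 1.03% of all genes. It was Socs3, a feedback inhibitor of cytokine signalling, at a mean of 10.3 beside 3.44 FPKM (1.33, adjusted p by limma 0.0304).

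On the FGF21 side, 2 of 16 receptor and regulator genes were higher in HFD livers, Pparg (0.70) and Fgfr2 (0.52), a count near the 12.1% of all genes, and neither passed with median-of-ratios scaling. Klb, the gene of the co-receptor beta-Klotho, was not among them, with levels from 10.5 to 12.8 FPKM in ND and from 8.88 to 11.6 FPKM in HFD livers. It was lower than in ND livers in both CLE livers (5.10 to 8.51 FPKM, difference -0.78, adjusted p by limma 0.00733) and LU livers (5.36 to 6.92 FPKM, difference -0.81, adjusted p by limma 0.0102). Of the 16 genes, 4 were higher and 3 were lower in CLE than in ND livers, beside 27.0% of all genes. In LU livers 2 were lower and 1 was higher, beside 14.9%, and the higher one was Fgfr2 (0.55, adjusted p by limma 0.0336). Of 12 targets of PPAR-alpha, the fasting regulator of Fgf21, 3 were lower and none was higher in HFD than in ND livers, beside 12.1% of all genes in both directions. Cyp4a14, a fatty acid hydroxylase, fell from a mean of 3729 to 1362 FPKM (difference -1.47, adjusted p by limma 0.0247), and Cpt1a, the entry enzyme of mitochondrial fatty acid oxidation, fell from 339 to 243 FPKM (-0.48, adjusted p by limma 0.0333). The third, Cyp4a10, had groups that overlapped (-0.71, adjusted p by limma 0.0426). ND mouse 3, the low one of its group in Fgf21, was also the lowest ND liver in Cyp4a14, at 2286 FPKM beside 4678 and 4224 FPKM. A link between these levels was not tested. Ppara itself ran from 77.5 to 104 FPKM in ND and from 90.2 to 97.8 FPKM in HFD livers. The genes of the GDF15 receptor, Gfral and Ret, were both below the expression filter.

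**Figure D4:**
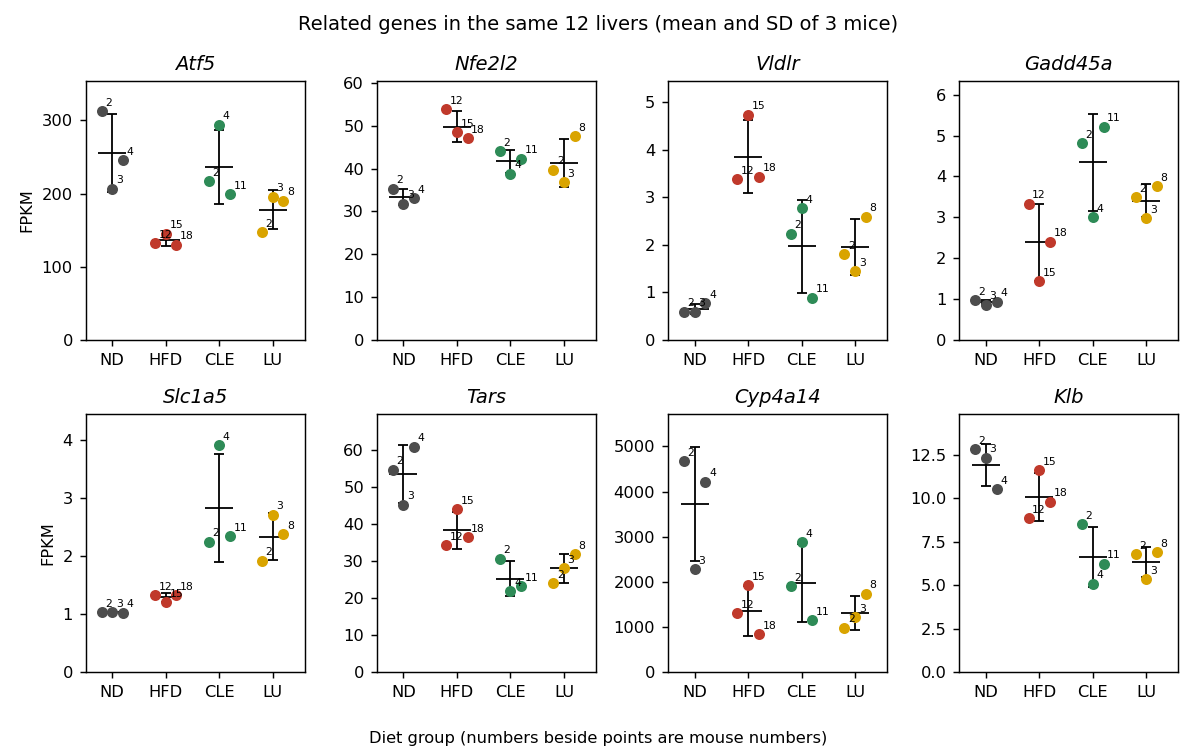
FPKM (vertical axes, from 0) of 8 genes related to the pathway in each of the 12 livers by diet group, with mouse numbers and the mean and SD of 3 mice. Atf5 is lowest in the HFD livers, between 130 and 145 FPKM, Vldlr is highest there, and Klb is lower in CLE and LU livers than in ND livers.

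The genes whose values ran most like those of the 2 hormones over the 12 livers were taken from the 11565 other genes as a description. For Fgf21 the closest were N6amt1 and Frat1, with Pearson's r of 0.88 and 0.88 and Spearman's rho of 0.87 and 0.84. For Gdf15 they were Anxa4, Atp8b5 and Efna5, with r of 0.96, 0.94 and 0.93 and rho of 0.94, 0.92 and 0.90. Anxa4, an annexin, ran from 19.2 to 24.1 FPKM in ND and from 30.8 to 34.3 FPKM in HFD livers and, like Gdf15, was highest among LU livers in mouse 8, at 35.5 FPKM. The 12 points share their groups and libraries, and the genes were picked as the most alike of all genes tested.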

How the data were processed

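Total RNA of the livers was sequenced as paired reads (TruSeq RNA kit, which does not mark strand). Per the labels, the authors used CASAVA 1.8.2, Bowtie2 2.2.3, TopHat2 2.0.12 and Cufflinks 2.2.1. They deposited 1 table of 152210 transcripts, in FPKM. The methods name DEGES/edgeR normalization factors, and whether the deposited FPKM values include them is not given in the sources used here. Neither is the genome build: 85.5% of known transcripts had the start and end of GENCODE M21 (GRCm38), whose gene coordinates are printed. Depth is unknown.

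FPKM values were summed by gene name (6316 transcripts without one were left out), filtered at a mean of 0.5 FPKM, and tested as log2(FPKM + 1) with limma 3.58.1 in R 4.3.3 (variance trend, 12 mice in 1 fit, Benjamini-Hochberg over 11566 genes), which understates changes of low genes. The procedure was tested on simulated data. The limma p-values rest on the spread between mice within groups, pooled over the 4 groups and moderated towards that of other genes. They do not allow for a spread that differs by group. Each group has 3 mice, and 3 against 3 permutations cannot go below 0.1. Python 3.11.15 and numpy 2.4.6 ran the exact tests.

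The members and gene lists were chosen with earlier results of these data known. Named from the lists were up to 4 genes each per comparison, those with the largest difference among genes with an adjusted p below 0.05 and groups that did not overlap, and the text gives a selection of them. A gene named by these rules is not reported here. Dbp in ND mice, Klb in HFD mice, Ppara, Cyp4a10 and the livers singled out were chosen after their values were seen. The clock score is the mean standardized level of 14 clock genes, with those of the opposite phase subtracted. The alternatives were other pseudocounts, filters, scalings, transcript sums, covariates and left-out mice.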

Additional observations from a re-analysis of the deposited data

Results flagged for a closer look

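The only signal outside the main measurement was a transcript assembled on the plus strand across Fgf21, at chr7:45614249-45615362, which the deposited table names Fut1 and which therefore is not in the Fgf21 sum. It stood at 4.014 FPKM in CLE mouse 4, above the highest ND liver at 2.935 FPKM. The other ND livers were at 1.465 and 2.575 FPKM, HFD livers between 0.571 and 0.895 FPKM, the other CLE livers at 1.456 and 1.409 FPKM, and LU livers between 0.721 and 2.13 FPKM. Since the libraries did not mark strand, reads of this transcript and of Fgf21 cannot be told apart. With it added, Fgf21 in HFD against ND livers kept its direction and an adjusted p by limma above 0.05.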

How the results depend on the processing

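Gdf15 and Ddit3 were higher in HFD than in ND livers in every setting run, and the adjusted p by limma stayed below 0.05. Percentages in brackets are the share of all genes that passed in the same setting. The count of 5 members became 2 with a mean of at least 5 FPKM (13.8%, where 5 members were tested) and 2 with quantile normalization (9.08%). It became 3 with the transcript of the highest mean (6.02%), 3 with the GC correction (10.2%), and 2 to 5 with 1 mouse left out (5.67% to 9.8%). The count for CLE against HFD ran from 0 to 2 with 1 mouse left out (0.242% to 18.9%). The count of 4 for CLE against ND became 2 without the filter (15.8%), 2 at a mean of 5 FPKM (30.5%) and 2 with median-of-ratios scaling (24.6%). It became 2 with quantile normalization (23.4%), 1 with the GC correction (17.4%) and 0 with the clock score (0.337%). With 1 mouse left out it ran from 2 to 5 (13.8% to 31.8%). The count of 3 for LU against ND became 1 without the filter (7.32%), 1 at a mean of 5 FPKM (18.3%) and 1 with quantile normalization (14.5%). It became 1 with the GC correction (10.7%) and 0 with the clock score (0.138%). With 1 mouse left out it ran from 1 to 3 (5.53% to 9.36%), where 1 of the 3 without LU mouse 8 was Fgf21, as lower. The exact test over 4 groups gave 5 members at a pseudocount of 0.1, 6 with median-of-ratios scaling and 3 to 8 with 1 mouse left out. The cause was not tested, apart from the smaller number of members or mice. The GC correction, the sums by annotated gene, the added transcript and the alternatives to the exact test were chosen after seeing the data. Of 972 comparisons of single members with an alternative, 838 kept direction and side of the threshold, 72 lost and 19 gained the call, and 43 changed sign, none with an adjusted p by limma below 0.05 after the change.

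The sign changes concerned differences near 0 or wide ones. For HFD against ND, Ppp1r15a went to -0.13 with median-of-ratios scaling, -0.13 with quantile normalization and -0.14 with the GC correction (-0.11 to 0.13 with 1 mouse left out), and Chac1 to -0.53 with the clock score (-0.10 to 0.58). Sesn2 in CLE against HFD went to -0.0452 with the GC correction. In LU against HFD, Fgf21 ran from -0.33 to 0.49 and Sesn2 from -0.25 to 0.087 with 1 mouse left out. For CLE against LU, Gdf15 went to 0.0225 at a pseudocount of 0.1, 0.0285 with the highest transcript and 0.0854 with known transcripts (-0.55 to 0.64 with 1 mouse left out), and Atf3 to -0.0138 at a pseudocount of 0.1 and -0.0191 with known transcripts (-0.26 to 0.35). Atf4 went to -0.0172 with median-of-ratios scaling and -0.0264 with the GC correction (-0.0715 to 0.13). Ddit3 went to -0.0256 with median-of-ratios scaling, -0.0135 with quantile normalization, -0.0212 with the highest transcript, -0.0062 with the clock score and -0.0493 with the GC correction (-0.11 to 0.15). Against ND with the clock score, Fgf21 went to 0.87 in CLE and 0.37 in LU livers and Chac1 to -0.25 in LU livers, and with the GC correction Ppp1r15a went to -0.0474 in LU livers. In CLE against ND with 1 mouse left out, Fgf21 ran from -0.48 to 0.072 and Chac1 from -0.53 to 0.16.

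CLE and LU mice shared 2 numbers each with ND mice, which names no shared litter or batch. Deviations of same-numbered mice correlated at -0.259 and -0.096 (CLE) and 0.086 and 0.183 (LU). With the replicate block the counts were 3 in CLE against ND, beside 9.17% of all genes, and 3 in LU against ND, beside 7.32%. There Chac1 in CLE livers turned to 0.27, and Fgf21 in LU livers passed as lower (-1.04, adjusted p by limma 0.0336), as it did without LU mouse 8 (-1.26, adjusted p by limma 0.0350). HFD mice shared no number with the others.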
